A study of Mus musculus with 10 samples.

Results

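Il1r2, the decoy receptor for interleukin-1 (IL-1), and 8 further genes of IL-1 and IL-18 signalling were followed across 3 genotypes of mouse CD4+CD25+ T cells: Il1r1, Il1rap, Il1rl2, Il18r1, Il18rap, Sigirr, Il1rn and Myd88. The members were every probe set that the array annotation assigns to one of these 9 genes, which gave 18 of the 45037 probe sets measured, none of them shared with another gene. Il1r2 was picked because its signal was higher with homozygous loss of SHP-1, so its values in me against WT and in me against he are a description with no test. RNA from 10 BALB/c mouse samples was measured on Affymetrix arrays: 3 from mice homozygous for the SHP-1 knockout, which have the motheaten phenotype (me), 3 from heterozygous mice (he) and 4 from wild type mice (WT). All mice were 17 to 19 days old, and the cells came from combined lymph nodes by a regulatory T cell isolation kit, with no culture or treatment. The labels restrict the knockout to no cell type, call the samples biological replicates and say nothing more about separate animals, so p-values measure the spread between these samples. SHP-1 is the tyrosine phosphatase encoded by Ptpn6. Regulatory T (Treg) cells, which restrain immune responses, carry both CD4 and CD25.

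IL-1 binds the receptor IL1R1, which then recruits the accessory chain IL1RAP, and the cytoplasmic TIR domains of both chains bind the adaptor MYD88, which leads through IRAK kinases and TRAF6 to NF-kappa B. IL1R2 binds IL-1 as well but lacks a TIR domain, so it takes up the ligand without signalling, and it can be shed as a soluble trap. IL1RN is a secreted antagonist that occupies IL1R1, SIGIRR is a receptor of the same family that dampens the signal, and IL-18 and IL-36 use the related pairs IL18R1 with IL18RAP and IL1RL2 with IL1RAP. Activated Treg cells and neutrophils are among the cells known to carry IL1R2.

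Of the 9 genes, 5 lie in 1 cluster on mouse chromosome 1, in the order Il1r2, Il1r1, Il1rl2, Il18r1 and Il18rap (RefSeq, GRCm38), with Il1rl1 between Il1rl2 and Il18r1 not analysed here. Il1rn lies on chromosome 2, Sigirr on 7, Myd88 on 9 and Il1rap on 16. The promoter of Il1r2, the gene chosen for its higher signal in me, is printed beside both promoters of its neighbour Il1r1, where all 3 genotypes overlapped. Each sequence is the 250 bases before a RefSeq start in GRCm38.p6, plus strand, from the reference strain and not from BALB/c. Capitals mark the E-box CACGTG and the STAT-type motif TTCNNNGAA, each the same on both strands, with no overlap between them.
Il1r2, chr1:40085843-40086092: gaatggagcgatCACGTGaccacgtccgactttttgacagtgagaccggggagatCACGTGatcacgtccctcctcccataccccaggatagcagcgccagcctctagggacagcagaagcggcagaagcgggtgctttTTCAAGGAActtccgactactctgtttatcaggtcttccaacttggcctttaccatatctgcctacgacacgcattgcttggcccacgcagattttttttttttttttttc
Il1r1, first start, chr1:40224830-40225079: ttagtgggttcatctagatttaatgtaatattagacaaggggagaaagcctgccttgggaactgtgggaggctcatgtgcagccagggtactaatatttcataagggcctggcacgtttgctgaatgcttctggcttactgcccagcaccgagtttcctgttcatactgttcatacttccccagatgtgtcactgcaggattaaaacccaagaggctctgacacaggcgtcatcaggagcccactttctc
Il1r1, second start, chr1:40266336-40266585: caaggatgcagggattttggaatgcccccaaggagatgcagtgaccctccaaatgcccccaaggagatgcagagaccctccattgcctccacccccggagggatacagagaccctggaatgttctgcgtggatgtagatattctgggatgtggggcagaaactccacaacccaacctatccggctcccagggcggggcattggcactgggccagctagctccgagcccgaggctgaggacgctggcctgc
The Il1r2 window held CACGTG at 238 and at 195 bases before the start and TTCNNNGAA at 111 bases, and neither Il1r1 window held either motif. Over 32851 promoter windows of 250 bases, 6.02% held CACGTG, 0.429% held it at least 2 times and 7.02% held TTCNNNGAA. Among 13 windows of 8 member genes, CACGTG was in 1 and TTCNNNGAA in 3, the others being windows of Il18r1 and Myd88. CACGTG was searched for after the Il1r2 sequence had been seen. On both strands the Il1r2 window held no AP-1 motif TGANTCA (6.75% of windows hold it), no NF-kappa B motif (GGG, any 5 bases, then CC; 45.8%) and no AGAACA, the core of a glucocorticoid receptor site (16.1%).

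Values below are log2(intensity + 32) after quantile normalisation, with differences in log2 units ± SE of the fit, unless deposited intensity is named. The main split between arrays was not genotype: they fell into set A (me 1, me 3, he 1, WT 1, WT 2) and set B (me 2, he 2, he 3, WT 3, WT 4), and 82.04% of the variance lay on the first principal component. Each genotype lies in both sets, so results are given with set as a block and within sets where that matters. In set B me is me 2 alone, and in set A he is he 1 alone, so those within-set values are not replicated. On the first component me 3 scored -25.3, between the other set A arrays (-56.8 to -54.2) and set B (41.0 to 60.6). Ptpn6 followed the labels: at its probe set with the larger difference it read 8.05, 8.31 and 8.17 in me, 8.75, 8.71 and 8.98 in he, and 9.22, 9.08, 9.62 and 9.13 in WT. Foxp3, the factor that defines Treg cells, ranged from 10.68 to 11.58 in me, 10.74 to 11.45 in he and 10.60 to 11.41 in WT. Genes of other organs, used as a gauge of unspecific signal, averaged 7.22 to 8.69 over 20 genes, the second brightest at 7.81. The probe sets of Il1r2, Il18r1, Sigirr and Myd88 and 1 of 2 for Il18rap were above all 20, and the other 13 member probe sets were within or below that range, with the brightest probe sets of Il1r1 (8.24) and Il1rap (8.14) and the dimmer one of Il18rap (7.99) above all organ genes but one, so low expression and unspecific signal cannot be told apart for them.

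Il1r2 was brighter in me than in both other genotypes, 1.91-fold against WT and 1.79-fold against he, and he did not differ from WT beyond their spread. Its deposited intensity was 1182, 1255 and 1117 in me, against 621, 571 and 617 in he and 533, 512, 539 and 881 in WT. Every me array was above every other array, the he arrays stayed within the WT range, and WT 4 stood above the other WT arrays. Mean intensity was 1185 ± 68.9 in me (SD, n = 3), 603.1 ± 27.8 in he (n = 3) and 616.3 ± 176.7 in WT (n = 4). After normalisation the log2 values were 9.92, 10.57 and 10.24 in me, 9.10, 9.43 and 9.70 in he, and 8.93, 9.10, 9.31 and 9.91 in WT. On that scale me 1 and WT 4 nearly touched, at 9.92 and 9.91. In bulk RNA, more cells that carry a transcript and more transcript per cell cannot be told apart.

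The me minus WT difference of Il1r2 was 0.93 ± 0.25, and me minus he was 0.84 ± 0.27. Sorted by difference, it stood at rank 13 of 45037 probe sets in me minus WT and at rank 17 in me minus he, which restates why it was chosen. Within set A the me minus WT difference was 1.07 and within set B 0.96, and me minus he was 0.98 and 1.01. With array set as a block me minus WT was 1.02 ± 0.15, and it was 0.84 ± 0.15 with me 3 moved to set B. Judged by Xist and Y-linked transcripts, me 1, me 2, WT 2 and WT 4 came from males and the rest from females, and me minus WT was 0.74 among males and 1.12 among females. The he minus WT difference, which the choice of the gene did not use, was 0.10 ± 0.25 (95% interval -0.48 to 0.67) and 0.01 ± 0.15 with the block. All he arrays came from females, and among females he minus WT was 0.29. With array set and sex both in the fit it was 0.08 ± 0.17. A 2-sided exact permutation test gave p = 0.743 for he against WT, where 3 against 4 arrays can reach 0.0571 at the lowest. The interval holds differences of either sign, so a small change with 1 lost copy could not be resolved with these arrays.

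**Figure D1:**
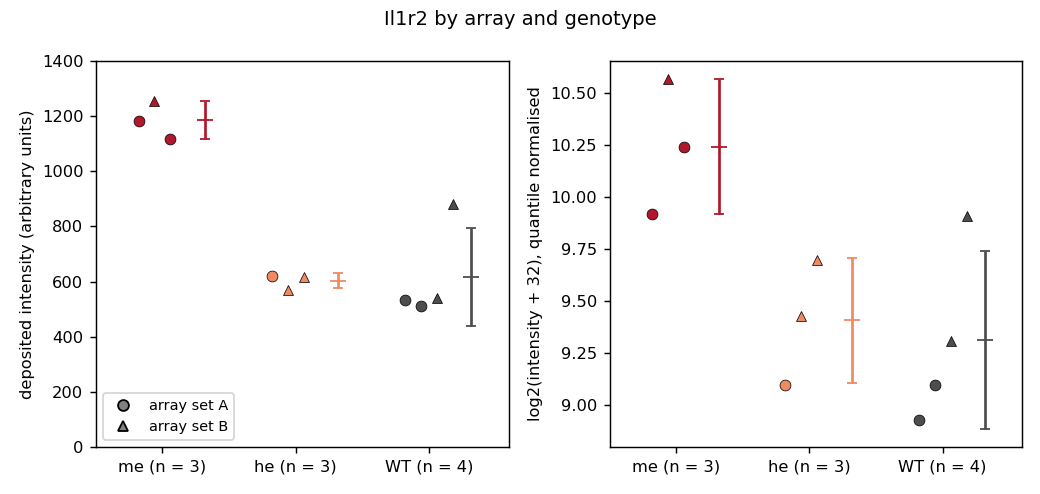
Il1r2 in each array, as deposited intensity (left, arbitrary units) and as log2(intensity + 32) after quantile normalisation (right), for me (n = 3), he (n = 3) and WT (n = 4); circles are array set A, triangles set B, and bars are mean ± SD. All me arrays lie between 1117 and 1255 on the left, above the highest WT array at 881.

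Across the 18 probe sets, limma with Benjamini-Hochberg adjustment over all probe sets called 0 in me against WT, in he against WT and in me against he, against 0% of all 45037 probe sets in each comparison. At an unadjusted p under 0.05 it gave none of the 17 probe sets of the other genes in any comparison, with 282 of all probe sets in me against WT, 134 in he against WT and 301 in me against he; Il1r2 is left out of these counts in both me comparisons, since it was chosen on them, and did not pass in he against WT. In the fit blocked by array set, 0 members and 3 probe sets of all (0.00666%) were called in me against WT, and 0 members and 0% of all in the other comparisons. At an unadjusted p under 0.05 that fit gave 2 of the other 17 in me against WT, 1 probe set each of Il18rap and Il1rn (1942 of all), 0 in he against WT (960 of all) and 1 in me against he, of Il1rn (1447 of all). Every me array lay above every WT array at 2 of 18 probe sets, those of Il1r2 and Sigirr, and 0.802% of all probe sets did so. The same 2 had every me array above every he array, against 1.61% of all. None lay wholly lower in me, where 0.835% (against WT) and 1.1% (against he) of all did. No member separated he from WT in either direction, where 0.469% were wholly higher and 0.573% wholly lower. Since Il1r2 was chosen on its me signal, only Sigirr adds to what the choice fixed.

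Of the 17 probe sets of the other genes, in me against WT 11 were higher and 6 lower, from -0.09 to 0.26, with a median of 0.05, while the median of all probe sets was 0 and 49.9% were higher. Of them 12 lay within 0.1 of no difference, where 77.8% of all probe sets did. In he against WT the differences ran from -0.09 to 0.17, and in me against he from -0.25 to 0.33. These comparisons share arrays and are not independent of each other.

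**Figure D2:**
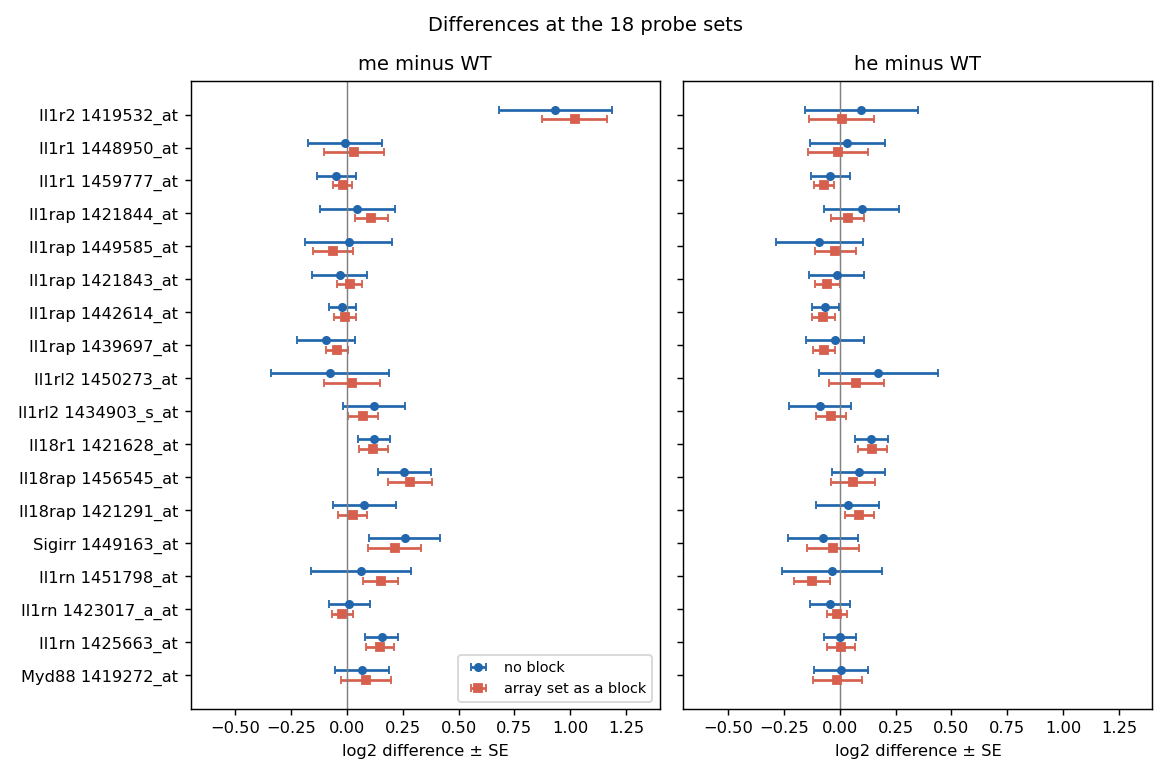
Log2 difference ± SE at the 18 probe sets for me minus WT (left) and he minus WT (right); blue circles are the fit without a block, red squares the blocked fit, with array set as a term. Il1r2 stands at 0.93 in me minus WT and at 0.10 in he minus WT, and the other 17 lie between -0.09 and 0.26 in me minus WT.

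At Il1r1, the signalling receptor for IL-1, the genotypes could not be separated. It read 8.26, 8.51 and 7.90 in me, 8.13, 8.48 and 8.18 in he, and 8.18, 8.13, 8.53 and 8.08 in WT at its brighter probe set. The groups overlapped fully, with a me minus WT difference of -0.01 ± 0.17 (95% interval -0.39 to 0.37, exact permutation p = 0.971). The difference between Il1r1 and Il1r2 was not itself tested. Il1rap, the accessory chain, has 5 probe sets, of which the brightest read 8.01, 8.55 and 7.88 in me, 8.02, 8.34 and 8.23 in he, and 7.94, 7.96, 8.28 and 8.22 in WT. Its me minus WT difference was 0.05 ± 0.17, and the other 4 Il1rap probe sets lay between -0.09 and 0.01.

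Il1rl2, which encodes the IL-36 receptor chain, read 7.42, 7.97 and 7.35 in me, 7.33, 7.80 and 8.37 in he, and 7.35, 7.48, 7.84 and 7.97 in WT at its brighter probe set. Its arrays sorted by set rather than by genotype: set A averaged 7.38 and set B 7.99. The me minus WT difference was -0.08 ± 0.27. At the second Il1rl2 probe set the order of the sets was turned, 7.79 in set A and 7.47 in set B.

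Both IL-18 receptor chains were slightly brighter in me at their main probe sets, and neither passed the test. Il18r1, the ligand-binding chain, read 10.47, 10.52 and 10.40 in me, 10.44, 10.48 and 10.54 in he, and 10.36, 10.49, 10.27 and 10.25 in WT. WT 2 reached into the me and he ranges, and both me and he were above the other 3 WT arrays. The differences were 0.12 ± 0.07 for me minus WT and 0.14 ± 0.07 for he minus WT (exact permutation p = 0.143 each), and in set A they were 0.02 each, against 0.25 and 0.24 in set B. Il18rap, the accessory chain that completes the receptor, read 9.32, 9.67 and 9.61 in me, 9.38, 9.48 and 9.21 in he, and 9.15, 9.15, 9.35 and 9.45 in WT at its brighter probe set. Of the me arrays, me 2 and me 3 were above every WT array and me 1 was not. The me minus WT difference was 0.26 ± 0.12 (95% interval -0.01 to 0.52, exact permutation p = 0.143), 0.31 within set A and 0.27 within set B. With array set as a block it was 0.28 ± 0.10 (95% interval 0.06 to 0.50), which limma did not call (adjusted p = 0.989). The second Il18rap probe set, within the range of organ genes, showed 0.08 ± 0.14.

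Among the brakes and the adaptor, Sigirr was the only one with me arrays above all others. Sigirr, a receptor that restrains IL-1 and Toll-like receptor signalling, read 9.26, 9.27 and 9.38 in me, 9.21, 9.10 and 8.60 in he, and 9.17, 9.26, 8.93 and 8.82 in WT. The separation was thin, since me 1 and WT 2 both round to 9.26, and in deposited intensity the groups overlapped, at 554 to 689 in me, 329 to 682 in he and 425 to 663 in WT. Its differences were 0.26 ± 0.16 for me minus WT (exact permutation p = 0.143) and 0.33 ± 0.17 for me minus he (exact permutation p = 0.1, the smallest that 3 against 3 arrays allow). Within set A, me minus WT and me minus he were both 0.11, and within set B they were 0.39 and 0.42. Without he 3, the lowest array, me minus he was 0.15.

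Il1rn, the receptor antagonist, has 3 probe sets, all as dim as organ genes. The brightest read 7.28, 7.99 and 7.38 in me, 7.15, 7.52 and 7.68 in he, and 7.25, 7.23, 7.87 and 7.60 in WT. The groups overlapped there, and with array set as a block me minus he was 0.28 ± 0.09, against 0.10 ± 0.24 without it, called in neither fit. The smallest exact p of any of the 17 probe sets in me against WT, 0.0857, came from a second Il1rn probe set. That one read 7.36, 7.14 and 7.33 in me, 7.06, 7.20 and 7.11 in he, and 7.14, 7.10, 7.10 and 7.14 in WT. Its me minus WT difference was 0.16 ± 0.07 over both sets, 0.23 within A, 0.02 within B, and 0.15 ± 0.06 with the set as a block. Myd88, the adaptor shared by these receptors, read 9.12, 9.12 and 9.43 in me, 9.04, 9.36 and 9.07 in he, and 9.08, 9.0, 9.31 and 9.23 in WT. Its me minus WT difference was 0.07 ± 0.12, with opposite signs in the sets, 0.24 in A and -0.15 in B.

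**Figure D3:**
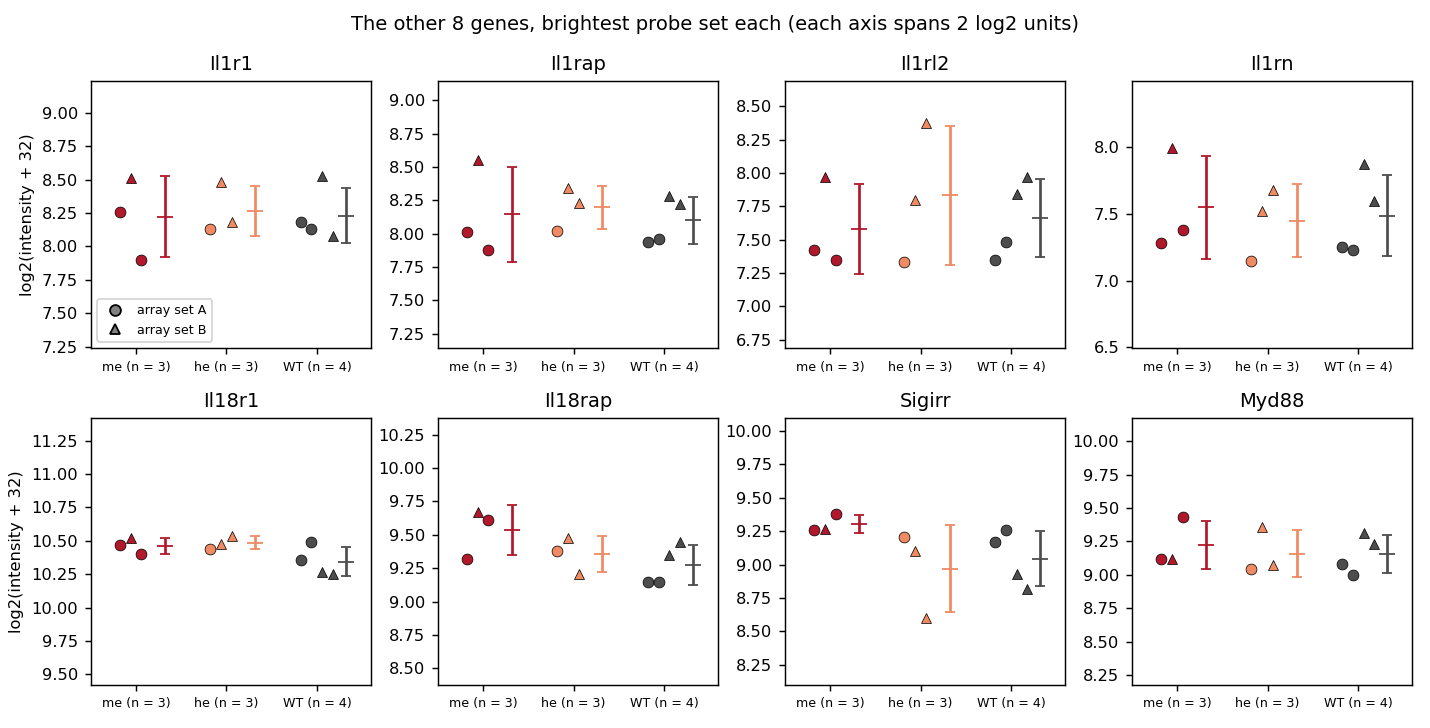
Log2(intensity + 32) after normalisation for the brightest probe set of each of the other 8 genes in me (n = 3), he (n = 3) and WT (n = 4); circles are array set A, triangles set B, bars are mean ± SD, and every axis spans 2 log2 units. In Il1rap, Il1rl2 and Il1rn the triangles lie above the circles in every genotype, and only in Sigirr are all 3 me arrays above the he and WT arrays.

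On the normalised scale, probe sets of 1 gene differed in opposite directions between the array sets. Set A minus set B was 0.43 and -0.36 at 2 Il1rap probe sets, 0.32 and -0.60 at those of Il1rl2, 0.30 and -0.11 at those of Il18rap, and 0.18 and -0.47 at 2 of Il1rn. For Il18rap the opposite signs appeared only after normalisation. In deposited intensity both of its probe sets averaged higher in set A. In all, 7 member probe sets were higher and 11 lower in set A. Il1r2 was lower in set A, at -0.33, and Il18r1 was alike in both at 0.02 after normalisation. In deposited intensity Il18r1 read 1271.3 to 1853.3 in set A and 1004.9 to 1213.5 in set B. These set means take no account of genotype. Set A holds me 1 and me 3 and set B only me 2, so the Il1r2 value mixes set and genotype.

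Along the cluster on chromosome 1, the me minus WT differences were uneven, which the choice of Il1r2 for its rise in me favours. Il1r2, first of its receptors, stood at 0.93, and its neighbour on the side away from Il1r1, Map4k4, at -0.01 to 0.10 over 5 probe sets. Beyond Il18rap, Slc9a4, Slc9a2, Mfsd9 and Tmem182 lay between -0.01 and 0.01. Their mean levels were 7.10 to 7.46, no brighter than organ genes, so an unchanged gene and unspecific signal cannot be told apart for them.

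The rest of the pathway was described by gene lists, each gene by its brightest probe set, with 0 genes called in any list in any comparison, with or without array set as a block. For comparison, 50.1% of all 18193 genes were higher in me than in WT, with a median difference of 0, and 46.9% were higher in he than in WT, with a median of -0.01. Of 10 IL-1 family ligands and soluble inhibitors, 6 were higher in me than in WT, with a median of 0.01. Il18, the ligand of Il18r1, differed by 0.11 ± 0.20, Il1f8, which encodes IL-36 beta, by -0.09 ± 0.17, and Il1f5, the IL-36 receptor antagonist, by 0.07 ± 0.17. Il1b, a ligand that IL1R2 binds, read 7.62, 7.63 and 7.68 in me, 7.62, 7.28 and 7.77 in he, and 7.65, 7.66, 7.57 and 7.57 in WT, within the organ gene range.

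Of 31 genes that carry the signal from MYD88, 25 were higher in me than in WT, with a median of 0.09, and 8 were higher in he than in WT, with a median of -0.05. With array set as a block, 16 of 31 were higher in he, with a median of 0.01. In me that fit gave 20 of 31, with a median of 0.04. The 3 with the smallest p were Ube2v1, part of the ubiquitin-conjugating pair that works with TRAF6 (0.26 ± 0.21), Peli1, a ubiquitin ligase for IRAK proteins (0.14 ± 0.13), and Ikbkb, a kinase that releases NF-kappa B (0.13 ± 0.12). Of 23 NF-kappa B feedback and response genes, 16 were higher in me than in WT and 10 in he than in WT, with medians of 0.09 and -0.01. Cd83, a surface protein of activated cells, differed by 0.40 ± 0.16 in me minus WT, Traf1, a signalling adaptor, by 0.29 ± 0.22, and Cflar, an inhibitor of caspase-8, by 0.17 ± 0.13.

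Of 11 genes for the processing of IL-1 and IL-18, 7 were higher in me than in WT, with a median of 0.09. Casp4, an inflammatory caspase, read 9.10, 8.44 and 9.05 in me, 8.68, 7.97 and 7.79 in he, and 8.67, 8.67, 7.87 and 7.92 in WT. Within each array set its me arrays were above the he and WT arrays. Its me minus WT difference was 0.58 ± 0.30, and 0.46 ± 0.06 with the set as a block, where limma's adjusted p was 0.188. Pycard, the inflammasome adaptor, differed by 0.31 ± 0.15 and Panx1, a membrane channel, by 0.25 ± 0.17.

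Because neutrophils carry Il1r2, their markers are given beside it. Of 20 neutrophil markers, 17 were higher in me than in WT, with a median of 0.07, 0 were called, and 5 had every me array above every WT array, where 0.802% of all probe sets did. S100a8, a calcium-binding protein abundant in neutrophils, read 7.43, 7.87 and 8.10 in me, 7.32, 7.21 and 7.24 in he, and 7.20, 7.26, 7.23 and 7.25 in WT. Its me minus WT difference was 0.56 ± 0.14, and that of S100a9, its partner, was 0.42 ± 0.12. Summed intensity of the 20 markers was 2905 to 3844 in me, 2861 to 3348 in he and 2756 to 3266 in WT. None was at 0, and in me 18 of the 20 had mean intensities within the range of organ genes there, 113 to 380. The marker means in me ran from 98 to 299, so none lay above that range. The top of the range rests on Oxt alone, with a mean intensity of 371.9 over all arrays. The next brightest organ gene, Prm1, averaged 194.5 over all arrays, below the brightest marker mean in me. The range therefore cannot show that the brightest markers were no more than unspecific signal. The part of neutrophil RNA in the Il1r2 signal was not tested.

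Markers of other cell types were counted in the same way. Of 22 macrophage and monocyte markers, 18 were higher in me than in WT, with summed intensity of 5010 to 7847 in me, 5194 to 6001 in he and 4223 to 5940 in WT. Of 7 plasma cell markers 6 were higher in me, with a median of 0.03, but only 3 in the fit blocked by array set, with a median of -0.01. Jchain, the joining chain of secreted antibody, read 9.82, 7.96 and 10.14 in me, 7.04 to 7.21 in he and 7.03 to 7.11 in WT. Of 9 mast cell and basophil markers 8 were higher in me, of 11 B cell markers 5, of 9 dendritic cell markers 4, of 12 CD8 and NK cell markers 7 and of 9 gamma delta T and innate lymphoid markers 3. The part of these cells in the Il1r2 signal was not tested. The ratio of Gapdh 3' to 5' probe signal, which depends on RNA length, was 10.9, 9.92 and 13.8 in me, 9.71, 7.88 and 8.53 in he, and 9.53, 7.84, 9.27 and 7.90 in WT. With that ratio as a covariate the me minus WT difference of Il1r2 was 1.29 ± 0.36. Every me array had a higher ratio than every he and WT array, so that fit cannot tell the ratio and the genotype apart.

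Genes whose signal followed Il1r2 across arrays were ranked by Pearson correlation over 10 arrays that share the me, he and WT groups and the array sets, among 11378 genes. On log2 values the 8 highest were Hmgn3, Fkbp5, Sqstm1, Bhlhe40, Trib1, Slc17a5, Lamp1 and Plekhm3, with r of 0.837 to 0.932. After centring within array sets they were Hmgn3, Igkv8-30, Slc17a5, Zan, Bhlhe40, Ly86, Fkbp5 and Ighm, with r of 0.920 to 0.972. In both rankings 4 genes recurred: Hmgn3, Fkbp5, Bhlhe40 and Slc17a5. Hmgn3, a nucleosome-binding protein, read 9.86, 9.93 and 9.92 in me, 9.20, 9.33 and 9.30 in he, and 9.13, 9.11, 9.13 and 9.64 in WT. Bhlhe40, a transcriptional repressor, read 10.96, 11.23 and 10.91 in me, 10.33, 10.41 and 10.25 in he, and 10.20, 10.47, 10.15 and 10.55 in WT. Fkbp5, a co-chaperone of steroid hormone receptors, differed by 0.35 ± 0.12 in me minus WT, and Slc17a5, a lysosomal transporter of sialic acid, by 0.22 ± 0.14. WT 4, the highest WT array for Il1r2, was also the highest WT array for all 4, which the choice of genes by correlation over these arrays favours. Igkv8-30 and Ighm encode antibody chains, and Igkv8-30 differed by 1.04 ± 0.29 in me minus WT. Il1r2 was chosen for its rise in me and these genes for following it over the same arrays. That choice favours a higher signal in me, so their me minus WT differences are a description with no test.

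**Figure D4:**
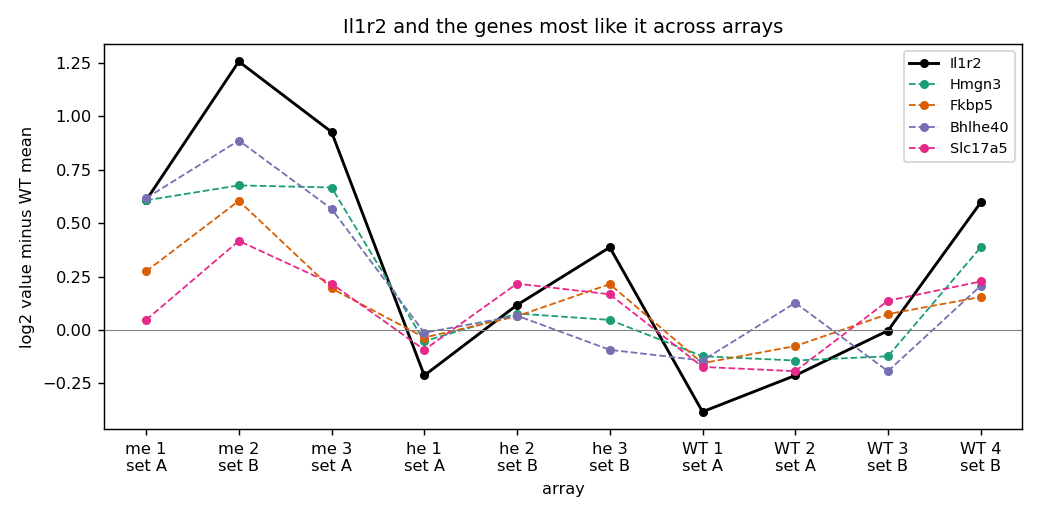
Log2 value minus the WT mean in each of the 10 arrays (me, he and WT from left to right, with the array set under each name) for Il1r2 and the 4 genes in both rankings of likeness. The me arrays lie highest for Il1r2, Hmgn3 and Bhlhe40, and WT 4 is the highest WT array for every gene shown. The choice of the genes on these arrays favours both.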

How the data were processed

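RNA from CD4+CD25+ T cells was amplified from 20 ng of total RNA, and 10 ug of amplified RNA was labelled with biotin, per the labels' protocols. Each array was deposited as linear intensity, 1 value a probe set; how the authors summarised, background-corrected and scaled the values is not given in the sources used here. The median intensity was 148 to 188. Values were transformed as log2(intensity + 32) and quantile normalised, and 64 control probe sets were left out. The 3 genotypes were compared in 1 limma fit (3.58.1, R 4.3.3) over the 10 arrays, with Benjamini-Hochberg adjustment over 45037 probe sets at a threshold of 0.05, and single probe sets by 2-sided exact permutation. The number of arrays limits the precision. Alternatives were a replicate block, array set as a block, covariates, pseudocounts of 1 and 128, other scalings, a filter, array weights and leaving out each array; 2 fits with array set were added after the data were seen. Array sets came from hierarchical clustering. The procedure was run on simulated data with independent normal noise around the array set means. There only the mean estimated differences were required to be close to those put in, and nothing was required of the calls.

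All probe sets of the 9 genes are named, with up to 3 genes a list by smallest p in me against WT, Ptpn6 as a check of the labels, and 8 genes by likeness to Il1r2. Foxp3, Il1b, Jchain and the neighbours on chromosome 1 were named outside that rule. Members and lists were chosen with earlier results of these data known. Promoter sequences are from RefSeq.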

Additional observations from a re-analysis of the deposited data

Results flagged for a closer look

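The deposited intensity of Il1r2 in WT 4 was 880.7, against 539.3 in the nearest WT array. That gap was 0.926 of the range of the 4 WT arrays, above the critical value of Dixon's test for 4 samples. The check was run on 36 sets of WT values, and chance passes about 1 in 20. After normalisation on the log2 scale WT 4 no longer passed. Without WT 4 the me minus WT difference of Il1r2 was 1.14 ± 0.21 and the he minus WT difference was 0.30, against 0.93 and 0.10 with it.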

How the results depend on the processing

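The me minus WT difference of Il1r2 was positive in all 26 alternatives, from 0.78 without me 2 to 1.29 with the Gapdh ratio as a covariate. Its me minus he difference was positive in all, from 0.67 without he 1 to 1.19 with that covariate. Il1r2 was chosen for its rise in me in these same arrays, which favours that sign in both, so these ranges are a description. The he minus WT difference ran from -0.05 without he 3 to 0.30 without WT 4 and was negative in 4. Of the 54 member differences 11 kept their sign in every alternative. Probe sets called over the whole array in me against WT numbered 0, but 3 with array set as a block, 2 with array weights and 0 to 2 when 1 array was left out (2 without me 2). In me against he they numbered 0, but 27288 with array weights, 10 of them members, and 0 to 2 when 1 array was left out (2 without me 2). The array weights ran from 0.268 for he 1 to 26.6 for me 3 and their estimation stopped before it converged; the cause of that count was not tested otherwise. In he against WT the count was 0 in every alternative, and 134 probe sets had an unadjusted p under 0.05. Same-numbered replicates did not deviate together in every pair (correlation of deviations -0.873 to 0.941). The correlation was positive where both arrays lay in the same array set and negative where they did not. This check therefore cannot show whether the numbers pair the samples. With the replicate block 0 probe sets were called in each comparison, and Il1r2 differed by 1.13 ± 0.13 in me minus WT. WT 4 is the only array numbered 4, so that block takes it out of the comparison. The value is therefore close to the 1.14 found without WT 4 and is not a separate check. At 3 or 4 arrays a group, exact permutation cannot pass the threshold. Probe sets as dim as organ genes limit what can be said of Il1r1, Il1rap, Il1rl2 and Il1rn.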

Other observations

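Of 25 genes of effector and tissue Treg cells, 20 were higher in me than in WT, with a median difference of 0.14, and 17 of 25 were higher with array set as a block, with a median of 0.09. In he, 9 of 25 were higher than in WT, with a median of -0.04. With array set as a block it was 16 of 25, with a median of 0.06. None was called by limma in either comparison. Tnfrsf9, a costimulatory receptor of activated T cells, read 10.10, 9.80 and 10.26 in me, 9.59, 9.57 and 9.55 in he, and 9.53, 9.94, 9.27 and 9.83 in WT. Cxcr3, a chemokine receptor, differed by 0.60 ± 0.27 in me minus WT, and Gzmb, a granule protease, by 0.60 ± 0.36.

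Of 13 genes of T helper cells that respond to IL-1 or IL-18, 6 were higher and 7 lower in me than in WT, with a median of -0.01 and 0 called. Csf2, which encodes the cytokine GM-CSF, read 7.63, 7.78 and 7.61 in me, 7.95, 7.75 and 8.02 in he, and 7.75, 7.98, 8.10 and 8.17 in WT, all within the range of organ genes. Stat4, a transcription factor downstream of IL-12, read 9.12, 9.42 and 9.39 in me, 8.95, 9.27 and 8.69 in he, and 8.91, 8.65, 9.19 and 8.77 in WT. The me and WT arrays overlapped for Stat4 through WT 3.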
